A study of Mus musculus with 24 samples.

Results

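Krt8-/- alveolar epithelial cells (AECs) were compared between day 7 and day 3 of 2D culture, using the 3 day 7 libraries and the 3 day 3 libraries. They were matched by the date in their labels, read here as the date of isolation. These are 6 of the 24 RNA-Seq libraries of the study, and the comparison covered every gene that passed a filter on low counts. Type 2 AECs (AEC2s) had been isolated on 3 dates from Krt8-/- or Krt8+/+ mice and sampled at day 0, day 1, day 3 and day 7, with 1 library for each genotype, date and day. Both groups compared here carry the same global deletion of Krt8, so the cells came from mice that lacked keratin 8 in all tissues. The labels give no treatment that differs between the days. Mouse age and the number of mice behind each isolation were not given in the sources used here. The question put to these samples is how far AECs that cannot make keratin 8 still change between the middle and the end of the culture.

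Surfactant, the film that keeps alveoli open, comes from AEC2s, which can also divide and replace the flat AEC1s of the gas exchange surface. On a flat dish AEC2s lose their surfactant genes and pass through a keratin-rich transitional state. Keratin 8 pairs with keratin 18 in the intermediate filaments of simple epithelia. Cells that spread and pull on a stiff surface build actin stress fibres, and the genes for smooth muscle actin, calponin and transgelin are known targets of the actin-responsive factors SRF and MRTF.

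Each of the 6 libraries held between 12205444 and 16648170 counts, and levels are given as CPM, counts scaled to the size of each library, in the order of isolations 1, 2 and 3. Krt8 (GRCm38 chr15:101996698-102004482, minus strand) stood at 29.9, 28.7 and 32.2 CPM at day 3 and at 29.8, 34.7 and 26.2 CPM at day 7. The Krt8+/+ libraries of the same days averaged 3269 ± 637 and 4029.8 ± 1068 CPM (SD, n = 3). The remaining Krt8 signal in the null cells did not pass the test between the days (log2 change -0.01, SE 0.20, adjusted p = 0.995).

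Some libraries stood apart in the RNA of other cell types. The summed level of 18 macrophage genes was 1803, 729 and 416 CPM at day 3 and 1728, 462 and 72.2 CPM at day 7, so it followed the isolation more than the day. Lyz2, a lysozyme gene of macrophages and AEC2s, made up most of that sum. In isolation 3 at day 7 the sum of 17 fibroblast genes reached 3367 CPM against 962 to 1109 CPM in the other two day 7 libraries, and the sum of 12 pan-epithelial genes was 5591 CPM against 9749 and 11954. Pan-epithelial sums at day 3 were 9242, 8891 and 10155 CPM, and Epcam and Cdh1 were detected in all 6 libraries. Counts without each isolation are therefore given beside the counts that move with it. In bulk RNA, fewer cells of a type and less RNA per cell cannot be told apart.

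Between day 3 and day 7, 767 genes rose and 1155 fell of 18046 tested, which is 4.25% higher and 6.4% lower, or 10.7% in all (edgeR quasi-likelihood test with the isolation as a block, adjusted p under 0.05). Of these 1922 genes, 1904 moved the same way in all 3 isolations. The same 3 pairs chose these genes, so that agreement is not separate support. A change of at least 2-fold was reached by 404 of the genes that rose and 834 of the genes that fell. Leaving out isolation 1, 2 or 3 left 311, 368 and 332 genes higher and 575, 789 and 550 genes lower. Day 7 values lay wholly above day 3 values for 15.6% of all genes and wholly below for 16.3%, so a separation of the 3 libraries is common here and is read beside the test.

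Among genes that reached 10 CPM, the 12 largest rises held secreted signals, contractile genes and genes that are hardly detected before day 7. AI593442 and the urotensin-related peptide gene Uts2b had no count in any day 3 library. At day 7, AI593442 stood at 14.4, 54.3 and 10.6 CPM and Uts2b at 9.32, 13.1 and 11.5 CPM, which is at least 366-fold and at least 168-fold higher against a floor of 3 counts over the day 3 group. Both calls were lost with DESeq2 (adjusted p = 0.248 and 0.197). Dgkk, a diacylglycerol kinase, rose from 0.48, 0.0603 and 0.915 CPM to 54, 78.1 and 31.4 CPM. Lce1h, a late cornified envelope gene of the epidermis, went from 0.137, 0.121 and 0 CPM to 13.6, 36.1 and 8.87 CPM.

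Igfbp2, an insulin-like growth factor binding protein and a known marker of mature AEC1s, rose from 2.54, 6.45 and 7.96 CPM to 126, 366 and 253 CPM, a log2 change of 5.44 (SE 0.61, 43.3-fold, adjusted p = 2.07e-05). Acta1, skeletal muscle alpha actin, rose from 48.1, 54.8 and 59 CPM to 921, 1631 and 779 CPM (19.7-fold, log2 SE 0.40, adjusted p = 5.33e-06). The lowest day 7 library was far above the highest day 3 library for both genes. Adcy5, the adenylate cyclase gene, and Dkk2, a secreted Wnt antagonist, rose by 5.24 (SE 0.90) and 4.89 (SE 0.95) on the log2 scale. The rest of this group were Lmod1 (leiomodin, an actin nucleator of smooth muscle), the kallikrein gene Klk8, the natriuretic peptide gene Nppb and the neuritin gene Nrn1, with log2 changes of 4.53, 4.18, 4.16 and 4.14. Dkk2 was not past the threshold without isolation 1 or 3, nor Nrn1 without isolation 3.

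The 12 largest falls were genes of airway cells, of AEC2s and of xenobiotic metabolism. Scgb1a1, the secretoglobin of club cells, fell from 866, 1127 and 905 CPM to 17.5, 15.4 and 6.7 CPM, a 74.2-fold fall (log2 SE 0.37, adjusted p = 9.9e-08). The cytochrome gene Cyp1a1 went from 14.6, 246 and 21.9 CPM to 0.915, 0.545 and 0.383 CPM and Cyp2s1 from 76.7, 42.2 and 57.7 CPM to 1.77, 0.857 and 0.702 CPM. Cyp1a1 was uneven at day 3, where isolation 2 was far above the others, while its 3 day 7 libraries were all below 1 CPM. Cfap44, a gene of the ciliary axoneme, was at 15.7, 2.71 and 11.7 CPM at day 3 and had no count at day 7, at least 149-fold lower. Vwa3a, Bpifa1 and Chia1 kept 1, 1 and 3 counts over the day 7 group. Cfap52, Spag6l and Iqub, which are also expressed in motile cilia or sperm tails, fell to below 1 CPM in all 3 day 7 libraries. Sftpa1 and Lyz1 are described with the AEC2 genes.

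**Figure D1:**
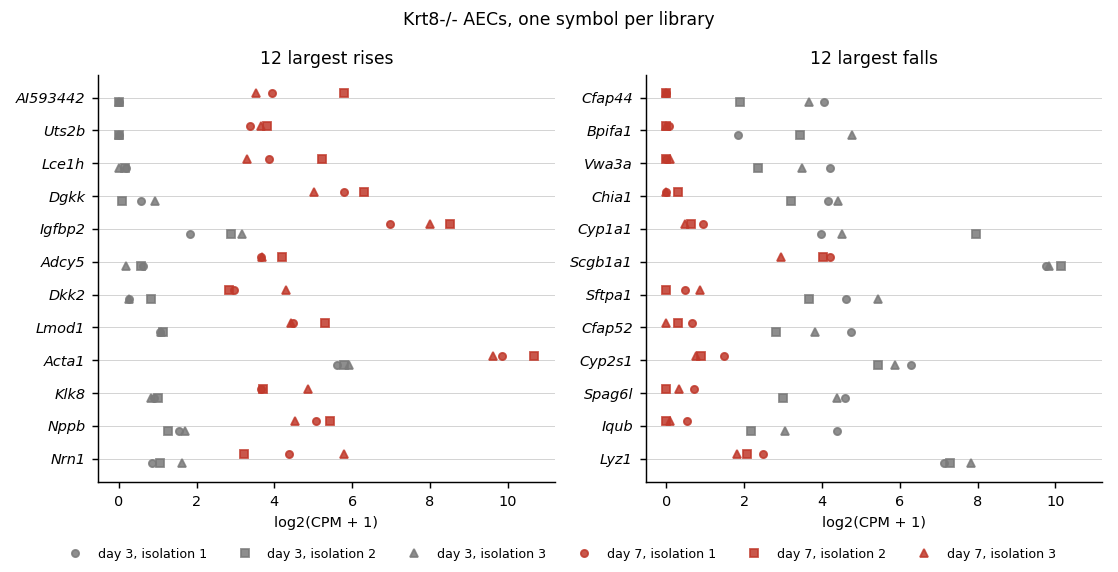
CPM of the 12 largest rises (left) and 12 largest falls (right) among genes reaching 10 CPM, on the log2(CPM + 1) scale, with day 3 in grey, day 7 in red and 1 symbol for each isolation. Day 3 and day 7 libraries do not overlap for any of the 24 genes, which were chosen by their change in these same libraries. Of all genes, 15.6% lie wholly above and 16.3% wholly below at day 7. Acta1 and Igfbp2 reach the highest levels among the rises, Scgb1a1 the highest day 3 level among the falls.

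The main contractile genes rose. Of 34 genes of actin, myosin and focal adhesion tested, 16 rose and 0 fell, against 4.25% of all genes, and the list's median log2 change was 0.71 against 0.00 over all genes tested. Cnn1, calponin 1, rose from 48.5, 29.8 and 40.5 CPM to 442, 679 and 367 CPM (12.4-fold, log2 SE 0.30, adjusted p = 1.79e-06). Tagln, transgelin, rose from 247, 464 and 184 CPM to 1306, 1857 and 1451 CPM (5.45-fold, adjusted p = 8.81e-05). Acta2, smooth muscle alpha actin, rose from 266, 482 and 159 CPM to 1459.9, 2253 and 2190.3 CPM (7.08-fold, adjusted p = 0.000362). In each of these genes the lowest day 7 library was at least 2 times the highest day 3 library.

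Myl9, the regulatory light chain of smooth muscle myosin, rose by 2.66 (SE 0.35) on the log2 scale, and the tropomyosins Tpm2 and Tpm1 by 2.24 (SE 0.30) and 1.12 (SE 0.17). Cald1, caldesmon, rose by 1.85 (SE 0.18). The broad cytoskeletal genes moved less: Vcl (vinculin) by 0.97, Flna (filamin A) by 0.77, Actb (beta actin) by 0.69 and Cnn2 by 0.54. Without isolation 1, 2 or 3, 14, 10 and 9 members were past the threshold, and Vcl, Flna, Actb and Cnn2 each lost the call in 1 or more of these fits.

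Markers of smooth muscle and pericytes were also counted. Of 10 tested, 5 rose (Cnn1, Lmod1, Tagln, Acta2 and Myh11) and 0 fell, 50% called against 10.7% of all genes. The median log2 change was 2.40, and 6, 5 and 5 were higher without isolation 1, 2 or 3. Their summed level went from 729, 1139 and 484 CPM to 3489, 5128 and 4630 CPM. Cnn1, Tagln and Acta2 are also counted in the actin list above and made up most of this sum, so the 2 lists are not separate results. Myh11, the smooth muscle myosin heavy chain, rose from 8.77, 9.1 and 2.32 CPM to 82.6, 143 and 73.1 CPM. The pericyte and mesenchymal markers of the list did not pass. Pdgfrb was at 36.5, 33 and 23 CPM at day 3 and 53.2, 36.9 and 197 CPM at day 7 (adjusted p = 0.106), and Cspg4 went from 11.2, 13.7 and 11.8 CPM to 32.4, 31.8 and 144 CPM (adjusted p = 0.054). Higd1b had no count in the 6 libraries, and Des, desmin, was at 27.9, 40.2 and 5.56 CPM and 16.2, 27.2 and 83.8 CPM (adjusted p = 0.547). Pdgfrb, Cspg4 and Des were highest in isolation 3 at day 7, the library with the highest fibroblast sum, where Cnn1 was the lowest of the day 7 libraries, while Acta2, Tagln and the list sum lay between the other two. The part of such cells in the rise was not tested.

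A CArG box, the binding letters of SRF, was searched in the 250 bases before the RefSeq start (GRCm38.p6), as CC, then 6 letters that are A or T, then GG, a pattern that reads the same on both strands. It was present for 1.45% of the 11696 tested genes with a promoter in the table. Of the 16 risen actin and myosin genes 13 had a promoter there and 3 of them (Cnn2, Myl9 and Vcl) held the box. Over the whole list, 5 of the 28 tested members with a promoter held it (17.9%). They include Actg1 and Myl6, which did not pass the test, so the box is not particular to the members that rose. None of the 3 risen smooth muscle genes with a promoter in the table held it. The search took only exact matches within the 250 bases, so it cannot show that a gene lacks an SRF site. The stretches of Cnn2, Myl9, Vcl and Acta1 are printed with the box in capitals. These genes were picked because they rose and held the box, so they do not show that risen genes share it. Cnn2 was lost without any 1 isolation and Vcl without isolation 2 or 3. Each match is a description of the letters, not a site.
Acta1, chr8:123894819-123894868, minus strand: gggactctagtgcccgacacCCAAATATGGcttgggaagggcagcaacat
Cnn2, chr10:79988524-79988573, plus strand: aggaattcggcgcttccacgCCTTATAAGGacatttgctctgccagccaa
Myl9, chr2:156775283-156775332, plus strand: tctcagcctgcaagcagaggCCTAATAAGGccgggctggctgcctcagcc
Vcl, chr14:20929151-20929200, plus strand: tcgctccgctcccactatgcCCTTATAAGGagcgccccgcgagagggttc
The last base of the box lies 64, 47, 152 and 218 bases before the annotated start in Acta1, Cnn2, Myl9 and Vcl.

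Targets of the mechanosensitive YAP/TAZ and TEAD factors included 9 of 26 that rose and 0 that fell (median log2 change 0.60). This is 34.6% called against 10.7% of all genes. Ankrd1, a muscle ankyrin repeat gene, rose from 379, 264 and 341 CPM to 1068, 1272 and 963 CPM (3.39-fold, log2 SE 0.31, adjusted p = 0.00116). Nuak2, Tead1 and Crim1 rose by 1.12, 1.24 and 1.25 on the log2 scale. The commonly used targets Ccn2 and Ccn1 did not pass. Ccn2 was at 1629.7, 1615 and 1686 CPM and then 3289.9, 4230.2 and 3300.5 CPM, above in all 3 isolations (adjusted p = 0.07), and Ccn1 was at 2122, 1571 and 1988 CPM and 2034, 2481 and 1915 CPM (adjusted p = 0.791). Leaving out isolation 1, 2 or 3 left 7, 4 and 3 members higher, and Tead1 was lost without isolation 3.

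Part of the basement membrane and adhesion genes rose. Of 32 laminin, type IV collagen and integrin genes (with perlecan and nidogen), 10 rose and 1 fell, against 4.25% and 6.4% of all genes, and 10 had a negative change, with a median log2 change of 0.49. Itgb1, the common beta 1 integrin chain, rose from 1595, 1763 and 1472 CPM to 2539.8, 3213 and 3353 CPM (1.89-fold, adjusted p = 0.0012). Col18a1, Hspg2 (perlecan) and Lamb1 rose by 1.87 (SE 0.26), 1.95 (SE 0.32) and 1.60 (SE 0.40) on the log2 scale. Itgb6, the epithelial integrin chain that activates latent TGF-β, fell from 656, 609 and 676 CPM to 355, 459 and 256 CPM (adjusted p = 0.00212). With each isolation left out in turn the list had 6, 5 and 6 members higher, Itgb1 lost its call without isolation 3, Itgb6 without isolation 1 or 3, and Lamb1 without isolation 2 or 3.

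Interstitial collagens and matricellular proteins had mostly positive changes. Of 36 tested, 5 rose (Col8a1, Loxl2, Fbln2, Sparc and Loxl4) and 1 fell (Dcn), which is 16.7% called against 10.7% of all genes, while the list's median log2 change was 0.96 and 30 of the 36 had a positive change. Fn1, fibronectin, was at 3421, 3327 and 3953 CPM at day 3 and 6203, 9359 and 5001 CPM at day 7 (adjusted p = 0.355). Col1a1, the alpha 1 chain of type I collagen, was at 362, 540.4 and 231 CPM and 443, 398 and 1260.1 CPM (adjusted p = 0.311), with isolation 3 far above the others at day 7. Vim, vimentin, had the same layout, at 269, 348 and 186 CPM and 508, 259.5 and 1180.3 CPM (adjusted p = 0.189). Dcn, the fibroblast proteoglycan decorin, fell from 71.8, 49.3 and 30.2 CPM to 16.2, 9.27 and 12 CPM (adjusted p = 4.97e-05). Dcn was the only one of 17 fibroblast genes tested to fall, while Thy1 rose and was lost without isolation 2. That is 11.8% called against 10.7% of all genes, and 10 of the 17 had a positive change. Risen members numbered 4, 1 and 2 with isolation 1, 2 or 3 left out: Loxl2 was lost without 1 or 2, Fbln2 without 2, Sparc without 2 or 3, Col8a1 without 3 and Loxl4 without any 1.

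The study's own TGF-β list had 38 of 285 genes higher and 20 lower (median 0.13), or 20.4% called against 10.7% of all genes. Several of those that rose are actin and matrix genes already named (Tpm1, Tpm2, Acta2, Vcl and Flna). Of 23 TGF-β ligands, receptors and direct targets, 13% were called. Tgfb2 (log2 change 1.19, SE 0.30) and Pmepa1 (0.56, SE 0.17) were the 2 that rose, and the only one that fell was Itgb6. Without isolation 1, 2 or 3, 25, 27 and 23 of the study's list were higher, and of the shorter list 1, 1 and 0. Tgfb2 was lost without isolation 2 or 3 and Pmepa1 without isolation 1 or 3.

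Several targets of p53 rose. Of 26 tested, 12 rose, against 4.25% of all genes, and 0 fell, 5 had a negative change, with a median log2 change of 0.52. Pmaip1, which encodes the death-promoting protein NOXA, rose from 35.4, 53.7 and 55.6 CPM to 504, 689.9 and 336 CPM (10.4-fold, log2 SE 0.45, adjusted p = 9.79e-05). Gdf15, a stress cytokine, rose from 17.3, 14.8 and 15.5 CPM to 46.4, 61 and 39 CPM, and Ccng1, cyclin G1, from 507, 599.9 and 607 CPM to 926, 1036 and 997 CPM. The day 7 values were above the day 3 values in all 3 isolations for each. Mdm2, the p53 ubiquitin ligase, rose by 0.72 (SE 0.21), but was lost without any 1 of the 3 isolations. Cdkn1a, which encodes the cell cycle inhibitor p21, was at 437, 619.5 and 478 CPM and 656, 685 and 598 CPM and did not pass (adjusted p = 0.462), nor did Trp53 itself (115, 128 and 110.5 CPM and 148, 143 and 127 CPM, adjusted p = 0.293). With isolation 1, 2 or 3 left out the list had 6, 5 and 7 members higher, and Ccng1 was lost without isolation 1.

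The study's stress lists had members in both directions, with 8.33% to 18.5% called against 10.7% of all genes. Its senescence list had 12 of 119 higher and 10 lower, its cell death list 8 of 74 higher and 5 lower, its DNA damage list 3 of 84 higher and 4 lower and its proteostasis list 11 of 124 higher and 7 lower. Their median log2 changes lay between -0.15 and 0.06. In the senescence list, Gdf15, Mapk14 (p38), Igf1r and the D cyclin gene Ccnd1 rose, and Areg, Irf7 and the serpin gene Serpinb2 fell. Cdkn2b, which encodes the inhibitor p15, was at 63.8, 56.9 and 69.9 CPM and 77, 87.4 and 51.9 CPM (adjusted p = 0.625). Tgm2, a protein crosslinking transglutaminase in the proteostasis list, rose from 573, 458 and 600.0 CPM to 1675, 2445 and 1226 CPM (adjusted p = 0.000886). Leaving out isolation 1, 2 or 3 left 6, 6 and 6 senescence genes higher and 5, 5 and 7 lower. In the same fits the cell death list had 2, 3 and 4 higher and 0, 1 and 1 lower. The DNA damage list had 0, 4 and 3 higher and 1, 1 and 1 lower, and the proteostasis list 5, 7 and 6 higher and 1, 6 and 2 lower. Ccnd1 was lost without isolation 1 or 3, Serpinb2 without 1 or 2, and Igf1r and Irf7 without 2.

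Proliferation genes gave few calls, 0% of the mitosis list and 5% of the DNA replication list against 10.7% of all genes. None of 40 mitosis genes passed, and of 40 DNA replication genes 2 fell (Pold3 and Mcm7) and 0 rose. Both medians were below zero, at -0.42 and -0.47, with 34 and 36 members on the negative side. Mki67 was at 34.8, 40.6 and 23.1 CPM and 33.2, 17.9 and 34.3 CPM, and Top2a at 87.1, 82.1 and 67.2 CPM and 61.1, 34 and 71.7 CPM. The ranges of the 2 days overlap for both genes. Among cyclin D genes and CDK inhibitors, Ccnd1, Ccnd2 and Cdk6 rose by 0.74, 1.24 and 1.29 on the log2 scale, and Rbl1 and Cdkn1c fell by 0.78 and 1.26. Each of these calls was lost without 1 or more isolations, Rbl1 without any 1 of them, and Mcm7 was lost without isolation 1 or 2.

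**Figure D2:**
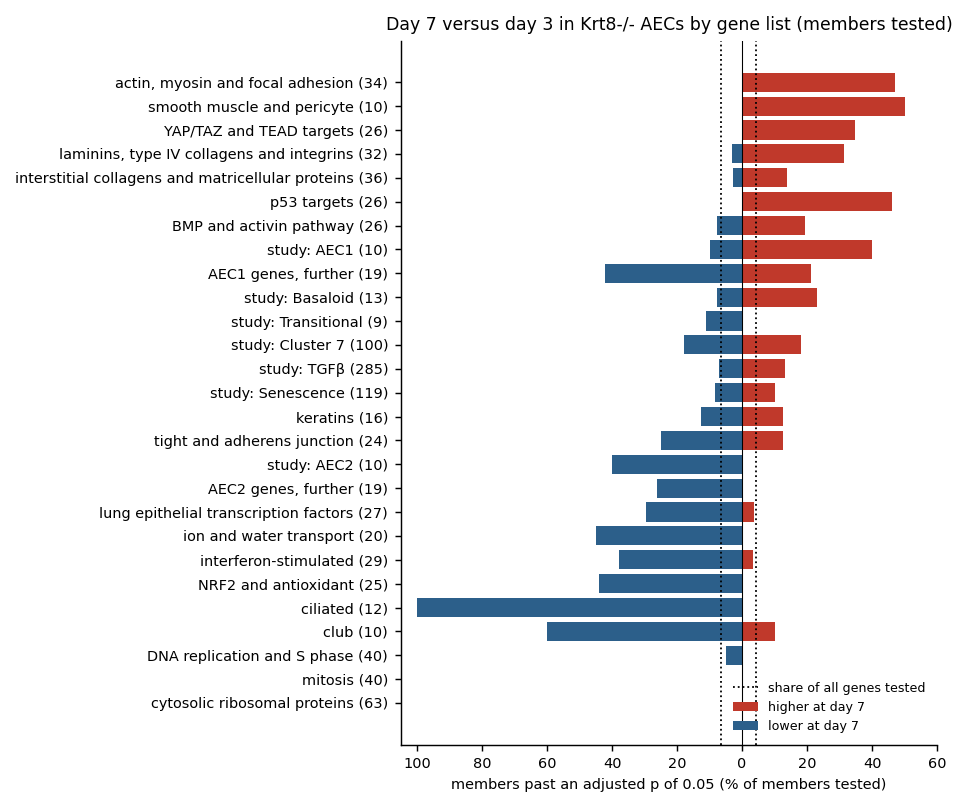
Share of the tested members of 27 gene lists that were past an adjusted p of 0.05, with members higher at day 7 to the right and lower to the left, and the shares over all genes (4.25% and 6.4%) as dotted lines. The contractile lists, which share Cnn1, Tagln and Acta2, and p53 targets have members to the right and none to the left, and the ciliated list has all 12 members to the left.

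AEC2 genes, already low by day 3, fell further. Of the study's 10 AEC2 markers, 4 fell (Lyz1, Sftpa1, Sftpc and Sftpb) and 0 rose, 40% called against 10.7% of all genes. The median log2 change was -1.59. Sftpc, surfactant protein C, stood at 186910.0 ± 29466 CPM at day 0 (SD, n = 3), then at 236, 205 and 378 CPM at day 3 and 22.6, 18 and 32 CPM at day 7 (11.3-fold lower from day 3, log2 SE 0.49, adjusted p = 0.000154). DESeq2 did not call Sftpc (adjusted p = 0.15). Its 3 day 7 libraries were all below the 3 day 3 libraries, as were those of 16.3% of all genes. Sftpb fell from 12.3, 15.8 and 14.8 CPM to 0.743, 0.701 and 0.319 CPM, Sftpa1 from 23.5, 11.6 and 42.6 CPM to 0.4, 0 and 0.829 CPM and Lyz1 from 140.0, 154 and 228 CPM to 4.63, 3.19 and 2.55 CPM. These last 3 genes were below 5 CPM in every day 7 library.

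The other AEC2 markers of the study did not pass. Sftpd, surfactant protein D, was at 71, 70.1 and 87.6 CPM and 27.2, 30.2 and 23.3 CPM (adjusted p = 0.101), lower in all 3 isolations. Lyz2 was at 1578, 615 and 371 CPM and 1543, 389 and 52.5 CPM (adjusted p = 0.781), the isolation order of the macrophage sum. H2-Ab1 and H2-Aa, class II antigen genes shared with macrophages, and the lipid-binding gene Fabp5 had log2 changes of 0.21, -1.71 and 0.95 (adjusted p = 0.86, 0.169 and 0.0982). Sfta2 was below 1 CPM in all 6 libraries. With a median of -1.37, 26.3% of 19 further AEC2 genes were called, against 10.7% of all genes. Of them 5 fell (S100g, Muc1, Cxcl15, Chil1 and Egfl6) and 0 rose. In the fits without isolation 1, 2 or 3 these counts were 2, 9 and 1, against 4, 5 and 4 in the study's list, and Chil1, Cxcl15 and Egfl6 were lost without isolation 1 or 3 and Muc1 without isolation 3.

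Some transcription factors of the lung epithelium fell as well. Of 27 tested, 8 fell and 1 rose (median -0.52), or 33.3% called against 10.7% of all genes. Nkx2-1, the factor that defines lung epithelial identity, fell from 134, 139 and 179 CPM to 57, 56.5 and 51.9 CPM, 2.71-fold (log2 SE 0.15, adjusted p = 9.23e-06). Ehf and Elf3, epithelial ETS factors, fell by 2.80 (SE 0.29) and 1.35 (SE 0.29), and Foxa2, which acts with Nkx2-1 on surfactant genes, by 1.26 (SE 0.19) on the log2 scale. Sox9, a factor of the embryonic lung tip, rose from 18.4, 12.3 and 21.1 CPM to 79.9, 102 and 65.8 CPM (4.65-fold, adjusted p = 0.000157). These changes were past the threshold in every fit that left out 1 isolation.

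**Figure D3:**
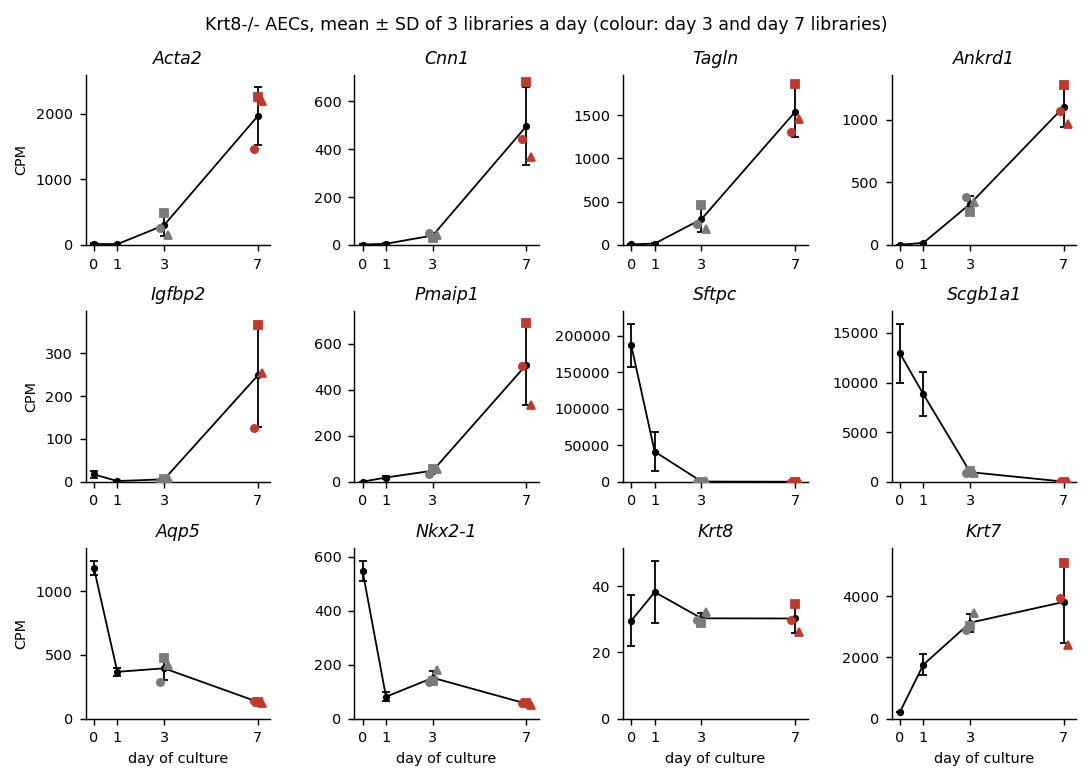
Levels of 12 genes in Krt8-/- AECs at day 0, 1, 3 and 7 in CPM, as mean ± SD of 3 libraries a day (black), with the day 3 (grey) and day 7 (red) libraries marked by isolation. Acta2, Cnn1, Tagln, Ankrd1, Igfbp2 and Pmaip1 are higher at day 7 than at any earlier day, Sftpc and Scgb1a1 fall mostly before day 3, and mean Krt8 lies between 29.6 and 38.2 CPM on the 4 days.

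AEC1 genes split into a rising and a falling set. Of the study's 10 AEC1 markers, 4 rose (Igfbp2, Spock2, Pxdc1 and Cryab) and 1 fell (Hopx), 50% called against 10.7% of all genes. The median log2 change was 0.58. Spock2, a matrix proteoglycan, rose from 1.78, 2.11 and 2.61 CPM to 12.1, 40.1 and 26 CPM (adjusted p = 0.000543). Hopx, a homeodomain factor of AEC1s, fell from 178, 189 and 227 CPM to 124, 128 and 118 CPM (log2 SE 0.20, adjusted p = 0.0375), and its call was lost without any 1 isolation, as Cryab's was without isolation 1 or 3 and Pxdc1's without isolation 1 or 2, so the list had 2, 3 and 3 higher in these fits. Pdpn, podoplanin, was at 60.5, 82.7 and 39.5 CPM and 65.1, 64 and 121 CPM (adjusted p = 0.489). The remaining markers, Timp2, Akap5, Ier3 and Rtkn2, had log2 changes of 0.65, 0.30, -0.17 and -0.51, none past the threshold.

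Of 19 further AEC1 genes, 4 rose and 8 fell (median 0.10), or 63.2% called against 10.7% of all genes. Aqp5, the water channel of AEC1s, fell from 289, 473 and 420.0 CPM to 136, 131 and 125 CPM (adjusted p = 7.68e-05), and Clic5, an intracellular chloride channel family gene, from 493, 520.3 and 620.4 CPM to 172, 156 and 165 CPM (adjusted p = 1.8e-05). Lmo7, Gramd2, Cldn18, Gprc5a, Emp2 and Sec14l3 also fell, and Sec14l3 is counted in the ciliated cell list below as well. The type IV collagen chains Col4a3 and Col4a4, caveolin gene Cav1 and Sema3a rose, by 1.45, 1.25, 1.15 and 1.19 on the log2 scale. Ager, the receptor RAGE of AEC1s, was at 560.2, 921 and 975 CPM and 706, 1124 and 834 CPM, with overlapping ranges (adjusted p = 0.889). Vegfa was at 252, 301 and 244 CPM and 357, 439 and 446 CPM (adjusted p = 0.162). Leaving out each isolation in turn, 3, 1 and 1 of the list were higher and 7, 6 and 5 lower. Col4a3 and Emp2 were lost without any 1 isolation, Cav1, Sema3a and Gprc5a without isolation 2 or 3, and Cldn18 without isolation 3.

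The transitional markers of the study gave a single call. Of 9 tested, 0 rose and 1 fell (Itgb6), 11.1% called against 10.7% of all genes, with a median log2 change of 0.03. Krt7 was at 2908, 3039.8 and 3473 CPM at day 3 and 3960.3, 5094 and 2408 CPM at day 7 (adjusted p = 0.527), and Krt18, the partner of the missing Krt8, at 1911, 1564 and 2041 CPM and 2400.0, 2569 and 1210.1 CPM (adjusted p = 0.792). Krt19 was at 1825, 1811 and 1815 CPM and 1457, 1856 and 879 CPM (adjusted p = 0.16). All 3 keratins were lowest in isolation 3 at day 7, the library with the low pan-epithelial sum, and higher in isolation 2 at day 7 than at day 3. Cldn4, Sfn, Anxa1 and Trp53 had log2 changes of -1.04, 0.03, 0.28 and 0.24. With 3 pairs these values do not show that the levels are equal.

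Of the study's 14 basaloid markers 13 could be tested, and 3 rose (Tpm1, Krt17 and Plau) and 1 fell (Zfp36l1). That is 30.8% called against 10.7% of all genes, with a median of 0.03. Krt17, a keratin of basal and wounded epithelium, rose from 13.4, 16.1 and 31 CPM to 71.9, 107 and 50.2 CPM (adjusted p = 0.00726). Krt5, the keratin of mature basal cells, fell from 1.65, 4.76 and 6.83 CPM to 0.343, 0.156 and 0 CPM (adjusted p = 0.0164), and Krt14 was at 3.02, 5.12 and 14.6 CPM and 3.55, 5.61 and 7.08 CPM. The list had 1, 1 and 3 members higher without isolation 1, 2 or 3. Krt17 lost its call without isolation 1 or 2 and without the isolation block, Plau in the same fits, and Krt5 without isolation 2 or 3. Sox4, Lamb3, Palld, Cdh3 and Tpm4 had log2 changes of -0.04, -0.38, 0.92, 0.70 and 0.32 and did not pass. The study's list for cluster 7 of its single cells, a basaloid group, had 36% called against 10.7% of all genes. In this list 18 of 100 genes were higher and 18 lower (median 0.23). Mcam, an adhesion molecule in it, rose from 85.7, 120.2 and 107 CPM to 557, 917 and 427 CPM (adjusted p = 4.15e-05), and Ctsh, a cathepsin that processes surfactant protein, fell by 1.41 (SE 0.17). Without isolation 1, 2 or 3, 12, 11 and 8 were higher and 14, 13 and 7 lower.

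Among the 16 keratins tested, 2 rose (Krt17 and Krt20) and 2 fell (Krt23 and Krt5), 25% called against 10.7% of all genes. The median was -0.43, and without isolation 1, 2 or 3 the list had 0, 1 and 2 higher and 2, 1 and 1 lower. Krt23 fell from 44.1, 44.1 and 63 CPM to 7.43, 6.07 and 3.83 CPM (adjusted p = 5.36e-06), and Krt20 rose from 0.0686, 0.482 and 0.422 CPM to 8.52, 10.8 and 3.76 CPM (adjusted p = 0.0115). Dsg3, a desmosomal cadherin, rose from 0, 0.482 and 0 CPM to 8.41, 9.97 and 2.17 CPM, and the linker gene Plec by 0.66 (SE 0.18) on the log2 scale. In the 24 tight and adherens junction genes, 3 rose and 6 fell, which is 37.5% called. Cldn1 and Cldn6 rose (2.15 and 1.83), whereas the alveolar claudin Cldn18 fell from 888, 1108 and 1202 CPM to 593, 589 and 486 CPM and cingulin (Cgn) from 394, 325 and 366 CPM to 188, 203 and 122 CPM. Without isolation 1, 2 or 3, 0, 0 and 3 were higher and 3, 6 and 1 lower, and Cldn18 and Cgn were lost without isolation 3. Cldn1 and Cldn6 were lost without isolation 1 or 2, Krt20 without isolation 1, Plec without any 1 isolation, and Dsg3 without isolation 1 and with DESeq2.

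Of 20 ion and water transport genes 9 fell, against 6.4% of all genes, with 0 higher and a median of -0.94. Besides Aqp5 they include Scnn1a, a subunit of the epithelial sodium channel, from 246, 289 and 295 CPM to 122, 151 and 98.4 CPM (2.24-fold lower, adjusted p = 0.000369), and the bicarbonate cotransporter Slc4a4, from 128, 140.0 and 130.4 CPM to 60.04, 66.2 and 40.1 CPM (adjusted p = 0.00029). Atp1b1, a sodium pump subunit, fell by 0.99 (SE 0.23), but was lost without isolation 1 or 3. The counts without isolation 1, 2 or 3 were 5, 6 and 3.

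All 12 genes of a ciliated cell list fell, against 6.4% of all genes, with a median log2 change of -4.09. Tppp3, a microtubule protein of cilia, fell from 81.8, 27.5 and 65.8 CPM to 4.17, 2.02 and 2.36 CPM (20.1-fold, adjusted p = 1.21e-06), and Cfap43 from 18.5, 6.09 and 12.9 CPM to 0.343, 0.311 and 0.128 CPM (46.8-fold, adjusted p = 2.93e-06). Rsph1, a radial spoke gene, fell by 2.77 (SE 0.41). Foxj1, the master regulator of motile cilia, fell the least, from 54.7, 14.7 and 38.1 CPM to 13.5, 18.3 and 7.53 CPM (adjusted p = 0.0195), was higher at day 7 in isolation 2, and lost its call without isolation 1 or 3, without the block (adjusted p up to 0.343 over the alternatives) and with the 12 or the 6 Krt8-/- libraries alone. In each of the last 3 fits 11 of the list were lower. The list summed to 384, 183 and 339 CPM at day 3 and 29.2, 27.3 and 17 CPM at day 7, so ciliated genes were a small part of the RNA on both days. With isolation 1, 2 or 3 left out, 10, 12 and 10 members were lower.

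Club cell genes mostly fell. Of 10 tested, 6 fell (Scgb1a1, Scgb3a1, Bpifa1, Cyp2f2, Cckar and Hp) and 1 rose, 70% called against 10.7% of all genes. The median log2 change was -5.20, or -3.89 with the 3 genes that had no count on one day set at their bound. Cyp2f2, the club cell cytochrome, fell from 5.42, 17.7 and 4.15 CPM to 0.0572, 0.234 and 0 CPM. Aldh1a1, a retinaldehyde dehydrogenase that is not restricted to club cells, rose from 109, 98.6 and 129 CPM to 253, 337 and 182 CPM (adjusted p = 0.00173) and was lost without isolation 2, as Hp was without isolation 3, leaving 6, 6 and 5 lower in the fits without isolation 1, 2 or 3. The summed club level fell from 989, 1265 and 1071 CPM to 271, 353 and 189 CPM. Among mesothelial genes, Lrrn4 and Upk1b fell from 49.9, 63.6 and 46.8 and 81.9, 118 and 67.4 CPM to 0.572, 4.44 and 3.95 and 8.52, 13.6 and 23.7 CPM, but Msln was at 1225, 1043 and 1265 CPM and 1686, 2448 and 872 CPM (adjusted p = 0.644). None of 16 macrophage genes passed.

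**Figure D4:**
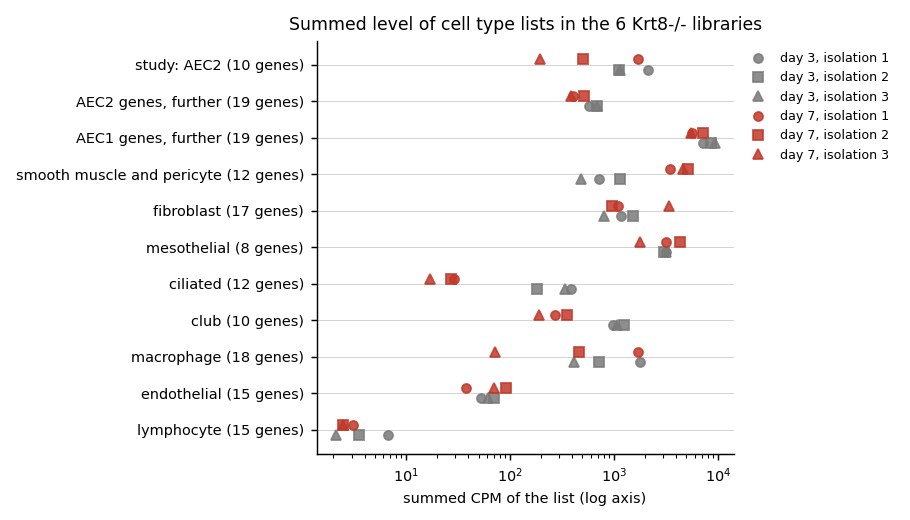
Summed CPM (log axis) of 11 cell type lists in the 6 Krt8-/- libraries, day 3 in grey and day 7 in red with 1 symbol for each isolation. Ciliated and club sums separate the days with lower day 7 values. Smooth muscle sums, mostly Acta2, Tagln and Cnn1, separate them with higher ones, and the macrophage sum spans 72.2 to 1728 CPM among the day 7 libraries.

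Part of the interferon-stimulated genes fell. Of 29 tested, 11 fell and 1 rose (Ifi44), or 41.4% called against 10.7% of all genes. The median log2 change was -0.93, with 27 members on the negative side. Ifit3 fell from 63.5, 23.9 and 51 CPM to 9.44, 2.26 and 4.21 CPM (adjusted p = 0.000292) and Mx1, an antiviral GTPase, from 6.51, 10.1 and 7.53 CPM to 0.4, 0.467 and 0.191 CPM (adjusted p = 0.000421). Ifit1 went from 4.8, 5.0 and 3.52 CPM to 2.23, 0.467 and 0.638 CPM and was lost without isolation 2 or 3 and without the isolation block. The summed level of all 31 listed genes went from 468, 408 and 442 CPM to 282, 279 and 254 CPM. The immunoproteasome genes Psmb8, Psmb9 and Psmb10 also fell. Ifi44 and Psmb10 were lost without any 1 isolation, and Psmb8 without isolation 2 or 3. Lower members of the interferon list numbered 8, 8 and 7 in the fits without isolation 1, 2 or 3.

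The core of the interferon-stimulated response element, searched on either strand as GAAA, then 2 letters of any kind, then GAAA, was present in the 250 bases before the start for 3.15% of the 11696 tested genes with a promoter in the table and for 10 of the 23 interferon genes with one. Of the 11 genes that fell, 8 had a promoter there and 2 held the element. Both are printed with the element in capitals, here read on the opposite strand, where each GAAA appears as TTTC.
Ifit1, chr19:34640765-34640833, plus strand: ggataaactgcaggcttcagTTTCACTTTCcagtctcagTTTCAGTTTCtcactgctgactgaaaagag
Ifit3, chr19:34583353-34583436, plus strand: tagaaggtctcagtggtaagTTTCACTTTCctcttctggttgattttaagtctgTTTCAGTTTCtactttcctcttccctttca
Each stretch holds the element 2 times.

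Of 28 cytokine and receptor genes 2 rose and 5 fell, of 16 NF-kB genes 0 rose and 3 fell, and of 24 chemokine genes 1 rose and 2 fell. These are 25%, 18.8% and 12.5% called against 10.7% of all genes. Without isolation 1, 2 or 3, lower cytokine and receptor genes numbered 2, 3 and 5 and lower NF-kB genes 3, 2 and 1. Tnip3, a feedback inhibitor of NF-kB, fell from 235, 178 and 194 CPM to 48.9, 26.4 and 20.5 CPM (adjusted p = 7.18e-05), and Tnf, the cytokine, from 5.9, 3.25 and 2.89 CPM to 1.32, 0.0779 and 0.447 CPM. Cxcl17, a mucosal chemokine, fell by 3.77 (SE 0.31) on the log2 scale. Csf3, which encodes G-CSF, rose from 2.74, 3.31 and 3.17 CPM to 27.5, 34 and 12 CPM (adjusted p = 8.81e-05), and Csf1, which encodes M-CSF, from 714, 617 and 394 CPM to 918, 922 and 2606 CPM (adjusted p = 0.0361). Csf1 was highest in isolation 3 at day 7 and lost its call without isolation 2 or 3, as Tnf did without isolation 1 or 2.

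NRF2 targets and antioxidant genes included 11 of 25 that fell and 0 that rose (median -0.46), 44% called against 10.7% of all genes. Gsta4, a glutathione transferase, fell from 119, 132 and 112 CPM to 28.8, 27.7 and 30.7 CPM (4.15-fold, adjusted p = 1.03e-05), and Gclc, which makes the first step of glutathione synthesis, from 329, 271 and 383 CPM to 114, 118 and 109.6 CPM (adjusted p = 0.000562). Slc7a11, the cystine importer, fell by 1.12 (SE 0.19) and Nfe2l2, which encodes NRF2, by 0.61 (SE 0.15). Nqo1, Hmox1 and Txnrd1 did not pass. Nqo1 was at 129, 229 and 148 CPM and 92.6, 65.4 and 203 CPM, and Hmox1 at 276, 303 and 206 CPM and 434, 273 and 901 CPM, and among the day 7 libraries both were highest in isolation 3. Counts without isolation 1, 2 or 3 were 4, 7 and 5, and Nfe2l2 was lost without isolation 1 or 3.

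In metabolism, none of 53 nuclear genes of the respiratory chain, 13 mitochondrially encoded genes or 63 cytosolic ribosomal protein genes passed. All 63 ribosomal protein genes had a positive log2 change, with a median of 0.41, and so did the 13 mitochondrial genes, with a median of 0.48. In Krt8+/+ AECs these medians were 0.38 and 0.17. The ribosomal sum was 10201, 13300 and 10003 CPM at day 3 and 15569, 12983 and 14484 CPM at day 7, so it was not higher in isolation 2. The mitochondrial sum was 5818, 8306 and 5291 CPM and then 9418, 11497 and 8014 CPM, higher in each isolation but with overlapping ranges. Of 24 genes of glycolysis and the hypoxia response, Eno1, Slc2a1 and Gapdh rose and Ndrg1 and Bnip3 fell. This is 20.8% called against 10.7% of all genes. Eno1, enolase, went from 1578, 1473 and 1711 CPM to 2283, 2061 and 3032 CPM and was lost without isolation 1 or 3. In fatty acid oxidation and the peroxisome 5 of 24 fell, among them Acaa2, Pparg and Acadm, and Etfdh rose, which is 25% called. Slc2a1 and Acadm were lost without any 1 isolation, Gapdh without isolation 1 or 3, and Bnip3 and Etfdh without isolation 1 or 2. The glycolysis list had 0, 3 and 0 higher and the fatty acid list 4, 3 and 2 lower in those fits.

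Secreted signals and their receptors changed in several families. Fstl3, Fst, Nog and Grem1, antagonists of BMPs or activins, rose, the first from 96.3, 95.9 and 103 CPM to 227, 319 and 175 CPM (adjusted p = 0.000214) and Nog from 5.96, 5.85 and 5.77 CPM to 19.2, 28.7 and 19.6 CPM (adjusted p = 0.00059). The ligand Bmp4 fell from 13.2, 14.8 and 22.7 CPM to 2.97, 3.04 and 2.3 CPM and Bmp3 by 3.24 (SE 0.43). In all, 5 of 26 genes of this pathway rose and 2 fell, or 26.9% called against 10.7% of all genes. Grem1 was lost without isolation 1 or 3, leaving 4, 5 and 4 higher in the fits without isolation 1, 2 or 3. The EGF receptor gene Egfr rose from 57.5, 72.9 and 48.9 CPM to 152, 212 and 113 CPM (adjusted p = 0.000186) while its ligand gene Areg, amphiregulin, fell from 285, 288 and 272 CPM to 45.6, 26.7 and 21.9 CPM (9.45-fold, adjusted p = 1.03e-05), as did Btc (-1.68, SE 0.24).

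The Wnt ligand genes Wnt9a and Wnt10a rose by 1.89 (SE 0.30) and 1.85 (SE 0.44) on the log2 scale. In this pathway 6 of 34 genes were higher and 2 lower, 23.5% called against 10.7% of all genes. In the fits without isolation 1, 2 or 3, 2, 3 and 2 were higher, and Wnt10a was lost without isolation 2. Bdnf, the neurotrophin, rose from 16, 25.9 and 19.3 CPM to 108, 129.7 and 166 CPM (adjusted p = 9.05e-05). Fgfr3 fell from 19.7, 18.9 and 19.7 CPM to 2.69, 3.74 and 3.44 CPM (adjusted p = 1.41e-05) and Fgf1 by 2.20 (SE 0.38). Of 22 FGF and MAPK feedback genes 3 fell and 3 rose (Spred3, Etv4 and Dusp5), 27.3% called against 10.7% of all genes. Their median log2 change was 0.62. Without isolation 1, 2 or 3, 0, 3 and 0 were higher and 3, 3 and 3 lower. Prl2c3 and Prl2c2, near-identical proliferin genes that may share reads, rose from 11.7, 6.27 and 9.72 and 15.3, 40.5 and 16.5 CPM to 59.6, 49.8 and 320.4 and 244, 54.6 and 374 CPM, and both were lost without isolation 3, Prl2c2 also without isolation 1 and Prl2c3 with DESeq2.

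The same step in Krt8+/+ AECs was compared to ask whether keratin 8 bears on these changes. It gave 1276 genes (7.07%), with 585 higher and 691 lower, and 1012 genes were past the threshold in both genotypes, which is 52.7% of the Krt8-/- calls and 79.3% of the Krt8+/+ calls. None of the 1012 moved in opposite directions. Over the 1922 genes called in Krt8-/- AECs, 1910 had the same sign in Krt8+/+ AECs, against 13544 of all 18046 genes, and the median size of their log2 change was 1.37 in Krt8-/- and 0.993 in Krt8+/+ AECs. The Krt8-/- value comes from the samples that chose these genes. The log2 changes of the 2 genotypes had a Pearson correlation of 0.714 across all 18046 genes and 0.918 across the 9980 that reached 10 CPM, a description over genes that are not independent replicates.

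The test of the difference between the 2 steps called 0 genes (0%, edgeR, smallest adjusted p = 1), with 337 at an unadjusted p under 0.05 (1.87%), and DESeq2 called 0 with 398 unadjusted. The share of 1.87% is below the 0.05 that evenly spread p-values would give if no gene differed. The genes below are therefore named by rank only and show no difference between the genotypes. The smallest unadjusted p belonged to Cfap43, which fell by 5.55 in Krt8-/- and changed by -2.84 in Krt8+/+ AECs (difference -2.71, SE 0.67, unadjusted p = 0.000843, adjusted p = 1). Gsta2, Adh7 and Igtp followed a like pattern, with log2 changes of -4.11, -3.07 and -2.12 against -2.50, -1.73 and -0.58. Of the 12 ciliated genes 3 had an unadjusted p under 0.05, and the list's median was -2.84 in Krt8+/+ AECs. Rgma was among the 10 as well, at 0.46 in Krt8-/- and -1.33 in Krt8+/+ AECs, as were Rasip1, Cfap70, Cdkl4, Gm26920 and Gm47817, all below 12 CPM. Krt18 changed by 0.13 in Krt8-/- and 0.91 in Krt8+/+ AECs (unadjusted p = 0.0252, adjusted p = 1).

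Acta2, Cnn1, Igfbp2, Pmaip1, Sftpc and Nkx2-1 had log2 changes of 2.06, 3.67, 5.97, 3.30, -2.41 and -1.04 in Krt8+/+ AECs, all in the direction seen in Krt8-/- AECs. A p that misses the threshold does not show that the genotypes act alike. The Krt8+/+ libraries of isolation 1 had 0 CPM of 4 Y-linked genes where the Krt8-/- libraries had 173 to 176 CPM, so in that isolation the sex of the mice and the genotype cannot be told apart. The Krt8-/- isolations also differed from each other. Isolation 1 had Y-linked sums of 176 and 173 CPM at day 3 and day 7 together with Xist at 6.03 and 12 CPM. Isolation 2 had 0.241 and 0 CPM of the Y-linked genes, with Xist at 51.2 and 53.5 CPM. In isolation 3 the Y-linked sums were 193 and 199 CPM, with Xist at 0 and 0.0638 CPM.

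**Figure D5:**
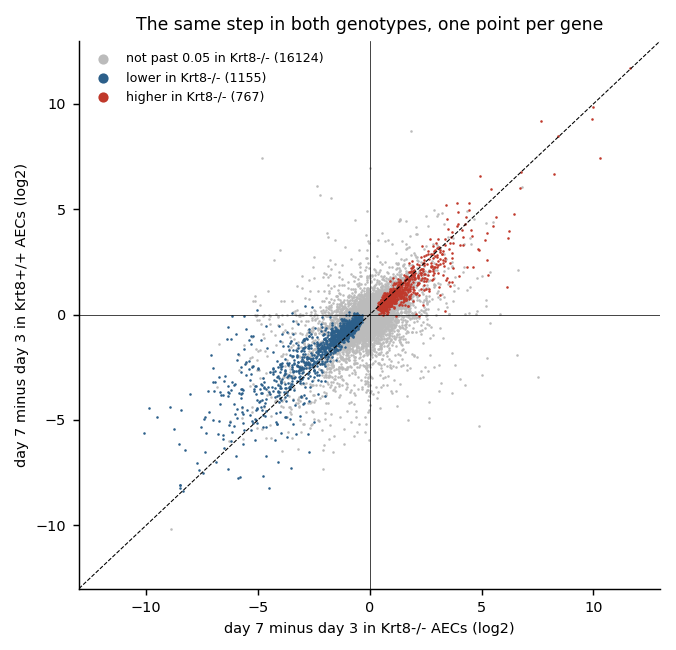
Log2 change from day 3 to day 7 in Krt8-/- AECs (horizontal) and Krt8+/+ AECs (vertical), 1 point for each of the 18046 genes, coloured by the call in Krt8-/- AECs, with the line of equal change dashed. Genes called in Krt8-/- AECs lie in the lower left and upper right, and 12 of the 1922 have opposite signs.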

How the data were processed

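RNA was extracted with the RNeasy Micro kit and sequenced. The authors deposited a table of gene counts, whole numbers per gene and library with no scaling. The submitters' processing notes name cutadapt 2.3, STAR 2.7.8a, RSEM 1.3.3 and GRCm38. Whether the counts are rounded RSEM estimates is not given in the sources used here. Of 55421 gene identifiers, 55240 had a symbol in GENCODE M21.

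Counts were fitted with edgeR 4.0.16 (R 4.3.3): quasi-likelihood F test, TMM scaling, 24 libraries in 8 groups, with isolation within genotype as a block. The block follows the date and replicate number of the labels. The date is shared by all days of a replicate and was read as the date of isolation. Deviations from the group means of day 3 and day 7 correlated at 0.237, -0.0104 and 0.0553 in isolations 1 to 3. Genes with low counts were removed with filterByExpr (minimum count 10, minimum total 15), leaving 18046. Adjusted p-values are Benjamini-Hochberg over these. The standard error (SE) of a log2 change was its size divided by the square root of F. Libraries of a group were separate isolations. No pair of replicates agreed within sampling noise. The fit was tested on simulated data. Alternatives included DESeq2 1.42.0, no filter, no block, another block and each isolation left out.

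The named genes were Krt8, the 12 largest rises and falls at 10 CPM or more that moved alike in 3 isolations, the members of the study's AEC2, transitional, AEC1 and basaloid lists, up to 4 members with the smallest p in each direction of other lists, and the 10 genes with the smallest p for the genotype difference. Others were chosen after their values were seen, as were the genes whose promoter is printed. The comparison and all gene lists, including 10 lists of the study, were chosen with earlier results of these data known, so their counts are descriptions. Promoter sequences came from RefSeq.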

Additional observations from a re-analysis of the deposited data

How the results depend on the processing

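Fewer libraries gave fewer calls. With the 6 Krt8-/- libraries alone, 490 genes were higher and 704 lower. Leaving out 1 isolation gave 311 to 368 higher and 550 to 789 lower, and 504 to 592 genes in Krt8+/+ AECs. Without the isolation block (no pairing of day 3 with day 7), 794 were higher and 1109 lower, 1188 changed in Krt8+/+ AECs and 0 differed between genotypes. DESeq2 gave 1089 higher and 1499 lower. The genotype difference had 0 genes in every alternative run. Of 349 genes followed, 289 were called and 120 of these stayed past the threshold in all 10 alternatives. Over all alternatives 2978 of 3475 values stayed on their side of the threshold, of which 22, for genes not called, changed sign, and 455 lost the call. The immunoglobulin gene Ighm (log2 change -6.16) was at 0.18 without isolation 1 (adjusted p = 1, edgeR) and at -6.84 and -6.81 without isolations 2 and 3, so isolation 1 decides it. Of 1340 list counts under alternatives, 1029 stayed within 1.5 times the original. The causes were not tested.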
